A study of Mus musculus with 10 samples.

Results

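The cytosolic ribosomal protein genes encode the proteins of the large (Rpl) and small (Rps) subunit of the ribosome outside mitochondria. They were chosen by name: Rpl or Rps with a number and at most a closing a or x, the stalk genes Rplp0, Rplp1 and Rplp2, and Rpsa. Of the 26411 genes in the table of the surgery experiment and the 55886 in that of the injection experiment, 76 matched in each. A mean of at least 0.5 FPKM (a read count divided by gene length and library depth) was reached by 75 of them in each table, 45 of the large and 30 of the small subunit, on 19 chromosomes. Rpl24 fell below it in both, with 12 to 19 reads in each library after surgery and 0 to 3 after injection.

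A ribosome needs each of its proteins in near equal amounts, and the genes are therefore usually expressed together at high levels. Their mRNAs typically begin with a run of pyrimidines, the terminal oligopyrimidine (TOP) motif. Through it the kinase complex mTORC1 and the RNA-binding protein Larp1 control how much of the mRNA is translated. In sensory neurons ribosomal protein mRNAs are also carried into axons and translated there. Many processed pseudogenes have arisen from these mRNAs, so short reads can often be placed on more than a single gene.

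The 10 RNA libraries came from mouse trigeminal ganglia, where the cell bodies of facial sensory neurons lie among glia. In the surgery experiment 3 of them followed sham surgery and 3 an operation labelled pIONT, all at day 10. In the injection experiment 2 followed saline (PBS) and 2 urocortin 1 (UCN1), a stress-related peptide, each given into the ganglion 6 hours earlier. Strain, sex and age are not stated in the labels, and they name no allele or other agent. Nothing tells separate animals from pools, and each p-value therefore reflects the spread between these libraries alone, which may be technical.

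Depth was 24.2 to 29.6 M reads in genes (M for 1e6) in the surgery experiment and 15.7 to 17.1 M in the injection experiment. All 15 sensory neuron markers were tested in both. Summed macrophage markers were higher in pIONT 2 (943 FPKM) than in the other 5 libraries of the surgery experiment (185 to 447). Summed markers of the pituitary, which lies close to the ganglion, reached 767 FPKM in sham 1 against 80.8 to 255 in the others. In the injection experiment they stood at 124 in both PBS libraries and at 9.14 and 9.61 in the UCN1 libraries. FPKM levels were not compared between the 2 tables, which differ in annotation and in the gene length used.

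The promoters of 56 of the 76 genes were found in a RefSeq table (GRCm38.p6). A run of at least 8 C or T on the transcribed strand within 20 bases of the start was present in 30 of the 56 (53.6%) and in 23.7% of 27025 genes with a promoter there. The letters CCGGAAG, searched on both strands of the 250 bases before to 50 after the start, were present in 23 (41.1%) against 9.93% of all genes, and TATAAA in 6 (10.7%) against 15.7%. Windows of 40 bases before and 20 after the start are shown for 6 of the 8 genes called higher after pIONT, 4 with such a run and 2 without. They are not the 6 with the smallest limma p. Of the called genes not shown, Rps24 has a run of 9 bases in its window and Rpl12 has none. Capitals mark every run of at least 8 C or T.
Rpl35, chr2:39005112-39005171, minus strand: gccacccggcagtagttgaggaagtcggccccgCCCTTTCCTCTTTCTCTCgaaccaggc
Rpl39, chrX:37085203-37085262, minus strand: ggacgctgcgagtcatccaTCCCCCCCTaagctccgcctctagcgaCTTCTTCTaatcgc
Rpl15, chr14:18270967-18271026, minus strand: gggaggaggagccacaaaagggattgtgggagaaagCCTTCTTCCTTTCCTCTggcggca
Rpl31, chr1:39367811-39367870, plus strand: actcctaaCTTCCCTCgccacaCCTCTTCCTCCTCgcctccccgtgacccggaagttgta
Rps4x, chrX:102189372-102189431, minus strand: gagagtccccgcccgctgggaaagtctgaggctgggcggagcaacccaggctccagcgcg
Rps13, chr7:116334171-116334230, minus strand: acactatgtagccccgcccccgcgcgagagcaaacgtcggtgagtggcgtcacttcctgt
The longest runs were 18 bases in the Rpl35 window and 17 in that of Rpl15, and both span the start. A run is a match of letters and not a measured site, and no run says only that the letters are not in this window.

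Measured levels of the 75 genes spanned a wide range, although their proteins are needed in like amounts. Reads that fit near copies and the gene length used enter these levels, and their part in the range was not tested. In the surgery experiment mean levels ran from 1.82 FPKM for Rps10 to 486 for Rplp1, with a median of 69.5 against 5.52 for all tested genes. After Rplp1, a stalk protein that recruits elongation factors, came Rps15 (377 FPKM), Rplp0 (305), the stalk's base, Rpl19 (264.3) and Rpl4 (236). The lowest besides Rps10 were Rpl21 (2.24), Rpl34 (2.53), Rps18 (3.80) and Rpl29 (4.17). In the injection experiment the median was 77.2 FPKM, against 10.3 for all tested genes. The highest were Rplp0 (383), Rpl4 (334), Rpl6 (314), Rpl7a (263) and Rpsa (262), the last also known as a laminin receptor. Rps10 (2.00), Rpl13a (2.59), Rpl30 (3.39), Rpl35 (5.56) and Rpl23a (6.17) were lowest.

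In the surgery experiment the 76 genes together held 2.42%, 2.45% and 2.32% of all FPKM in sham 1 to 3 and 2.39%, 2.94% and 2.71% in pIONT 1 to 3. pIONT 1 lay within the sham range, and pIONT 2 and 3 lay above it. Gene by gene the picture was the same: set against the sham mean of each gene, the median difference of the 75 genes on the log2(FPKM + 0.5) scale was 0.03 in pIONT 1, 0.38 in pIONT 2 and 0.22 in pIONT 3. The sham libraries lay at 0.00, 0.03 and -0.04. pIONT 2 was the highest of the 6 libraries for 61 of 75 genes, pIONT 3 for 7 and pIONT 1 for 1. The median of all tested genes stayed between -0.03 and 0.01 in each library.

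**Figure D1:**
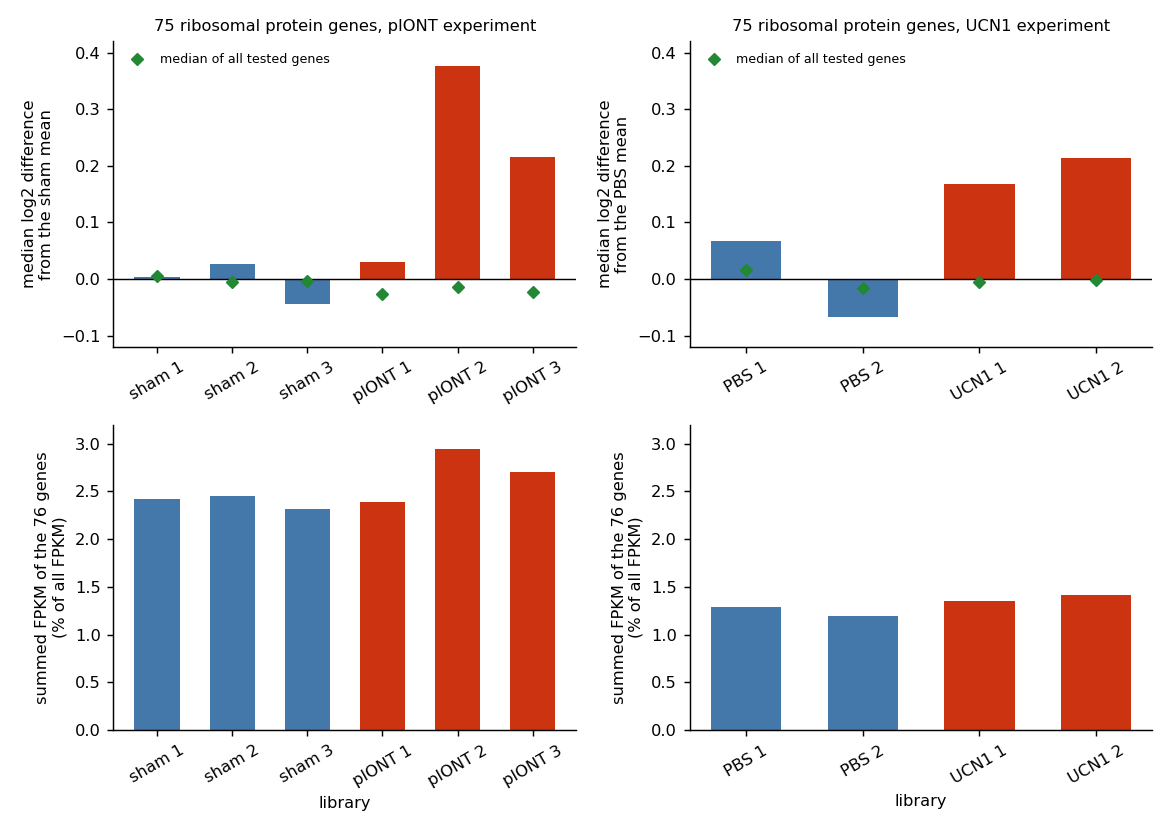
Upper panels: median log2 difference (FPKM + 0.5) of 75 ribosomal protein genes from the mean of the control libraries, as bars per library (blue for sham or PBS, red for pIONT or UCN1), with the median of all tested genes as green diamonds. Lower panels: summed FPKM of the 76 genes as a percentage of all FPKM in the library; pIONT 1 lies at the sham level, while pIONT 2, pIONT 3 and both UCN1 libraries lie above their controls.

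The first comparison set the ganglia at day 10 after pIONT against sham. Between the groups, 73 of 75 genes had a log2 fold change above 0 (97.3%, against 45% of all tested genes), and the median was 0.20, a 15.0% higher level, against -0.02 for all tested genes. Of single genes, 8 of 75 (10.7%) were called higher and 0 lower at a limma adjusted p under 0.05. Of all tested genes 22.8% were called, 10.5% higher and 12.3% lower, so the share of members called higher was that of the background. At an unadjusted p under 0.05 there were 33 of 75, all higher (44%, against 37% of all genes in either direction). For 24 genes (32%) every pIONT library lay above every sham library, against 18.7% of all genes, and for 0 genes every one lay below, against 24.7% (43.4% in either direction).

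The libraries weigh heavily on these counts. Without pIONT 1 the number called higher was 46 of 75 and the median 0.30. Without pIONT 2 it was 6 with a median of 0.13, without pIONT 3 it was 4, and without any 1 of the sham libraries it was 2. The share of all genes called in each of these refits is not reported here. The counts therefore cannot be set against a background, and the 10.5% above belongs to the full fit. In bulk tissue, more cells of a type and more RNA per cell cannot be told apart. Macrophage markers moved with the comparison: 9 of 13 were called higher and 0 lower, and their summed level was 342, 185 and 223 FPKM in sham 1 to 3 and 447, 943 and 402 in pIONT 1 to 3, with no marker at 0. Fibroblast markers summed to 188 to 251 in sham and to 235, 375 and 237 in pIONT, with 0 of 8 called. Of 8 myelinating Schwann cell markers 5 were called lower and 0 higher (summed level 4564 to 5052 in sham and 3782 to 4061 in pIONT), and of 6 endothelial markers 2 were called lower (35.4 to 38.5 and 32.3 to 34.2). Of 8 satellite glia markers 2 were called higher (2673 to 2838 and 3037 to 3738). Of 15 sensory neuron markers 8 were called lower and 3 higher. Among them Snap25 changed by -0.59 and Tubb3 by 0.89, and the summed level was 6563 to 7139 in sham and 7400 to 7494 in pIONT. The part of these cell types in the result was not tested.

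**Figure D2:**
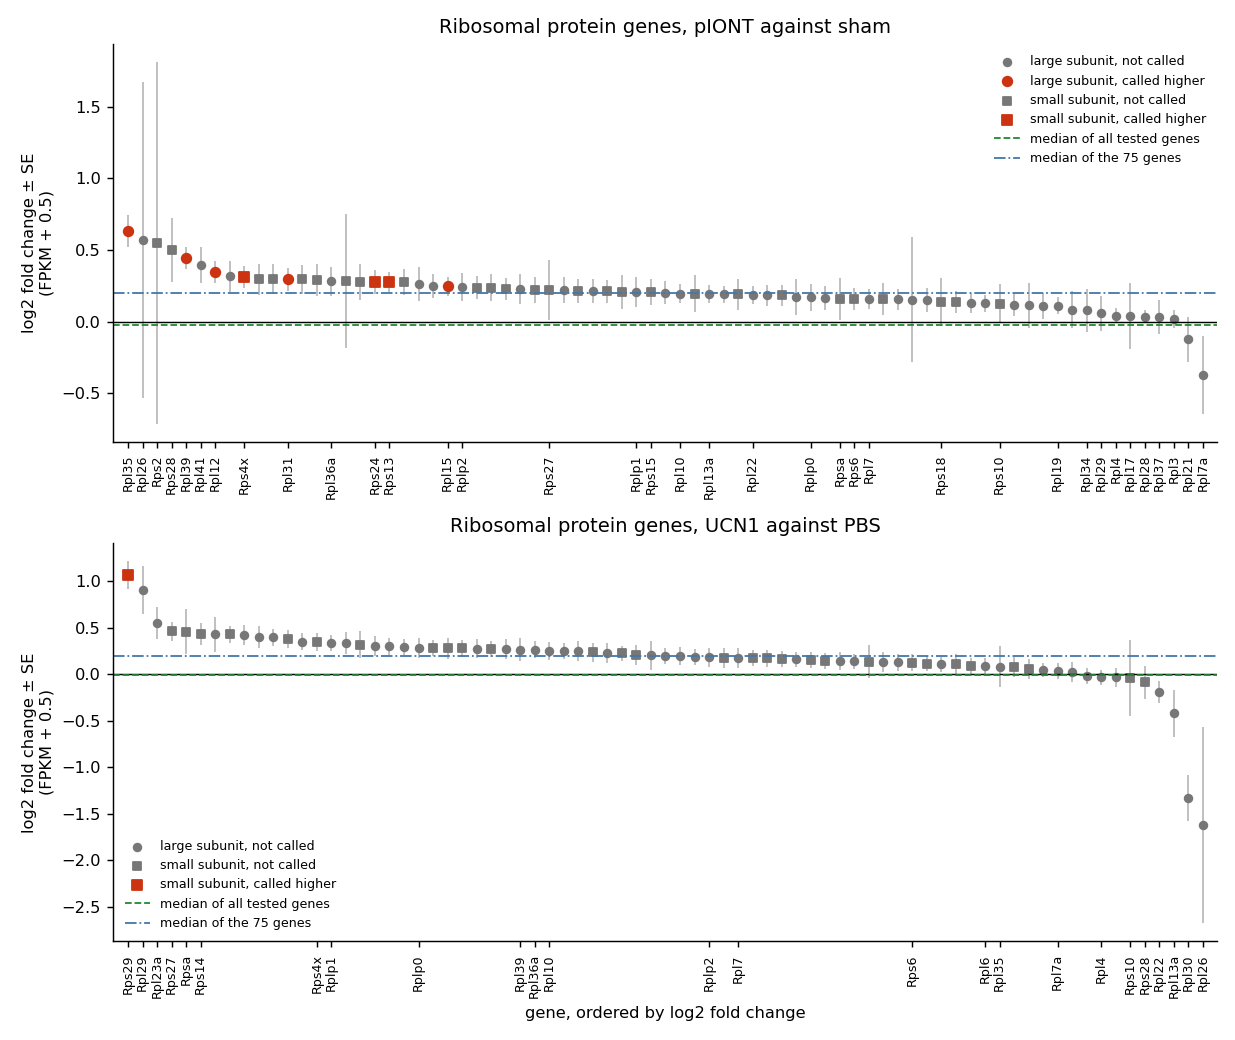
Log2 fold change with its standard error for each of the 75 ribosomal protein genes, ordered by size (genes that the naming rule takes are labelled), after pIONT (upper panel) and after UCN1 (lower panel); circles are large subunit and squares small subunit genes, and red marks genes called at an adjusted p under 0.05. Most genes lie slightly above 0 in both panels, 8 are called in the upper and 1 in the lower, and the widest errors belong to Rps2 and Rpl26 in the upper and to Rpl26 in the lower panel.

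Rpl35, a protein beside the exit of the peptide tunnel, had the largest fold change and was called. It stood at 54.5, 57.3 and 53.3 FPKM in sham and at 70.9, 96.4 and 91.9 in pIONT, on 1598 to 3496 reads per library (log2 fold change 0.63, SE 0.11, limma adjusted p = 0.00898). All 3 pIONT libraries lay above the sham libraries. The gene lies on chromosome 2 at 38891592 to 38895636, as the surgery table gives it. Of the 50-base words of its mRNA 4.91% occur in no other annotated gene, and 37.6% occur in Gm2000. Rpl35 held 92.8% to 94.3% of its reads and those of its near copies together in each surgery library.

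Rpl39, a small protein of the tunnel wall, was called as well and shares fewer words, with 83.5% of its own. Its levels were 29.7, 30.7 and 30.3 FPKM in sham and 37.0, 45.7 and 41.5 in pIONT (log2 fold change 0.44, SE 0.07, limma adjusted p = 0.00792). The SD of the sham libraries was 0.502 FPKM, and each pIONT library lay above them. It lies on chromosome X at 36346173 to 36349055. Rpl35 and Rpl39 kept their calls in all 16 alternative fits, and the other 6 called genes kept theirs in 6 to 13 of 16.

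The other called genes of the large subunit were Rpl12, Rpl31 and Rpl15. Rpl12, which sits at the base of the stalk, was at 34.1, 35.0 and 33.0 FPKM in sham and at 39.5, 49.2 and 41.9 in pIONT (log2 fold change 0.35). Rpl31 was at 80.0, 83.3 and 77.6 against 87.9, 109 and 99.7 (0.30). Rpl15 was at 71.0, 69.9 and 67.7 against 77.2, 91.2 and 80.2 (0.25). In each, pIONT 1 was the lowest and pIONT 2 the highest of the pIONT libraries, and the groups did not overlap. Their limma adjusted p-values were 0.0233, 0.0374 and 0.0363.

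Of the small subunit Rps4x, Rps24 and Rps13 were called. Rps4x, the X-linked form of a gene that has a Y-linked partner in humans, was at 160, 148 and 151 FPKM in sham and at 179, 213 and 179 in pIONT (log2 fold change 0.31). Rps24 was at 35.8, 34.7 and 33.8 against 38.3, 48.0 and 41.0 (0.28). Rps13 was at 27.0, 27.9 and 27.3 against 30.04, 36.1 and 34.0 (0.28). Groups did not overlap in any of these, and limma adjusted p-values were 0.0284, 0.0489 and 0.0282. The median fold change on the log2 scale was 0.17 for the 45 large and 0.23 for the 30 small subunit genes, with 5 and 3 called.

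**Figure D3:**
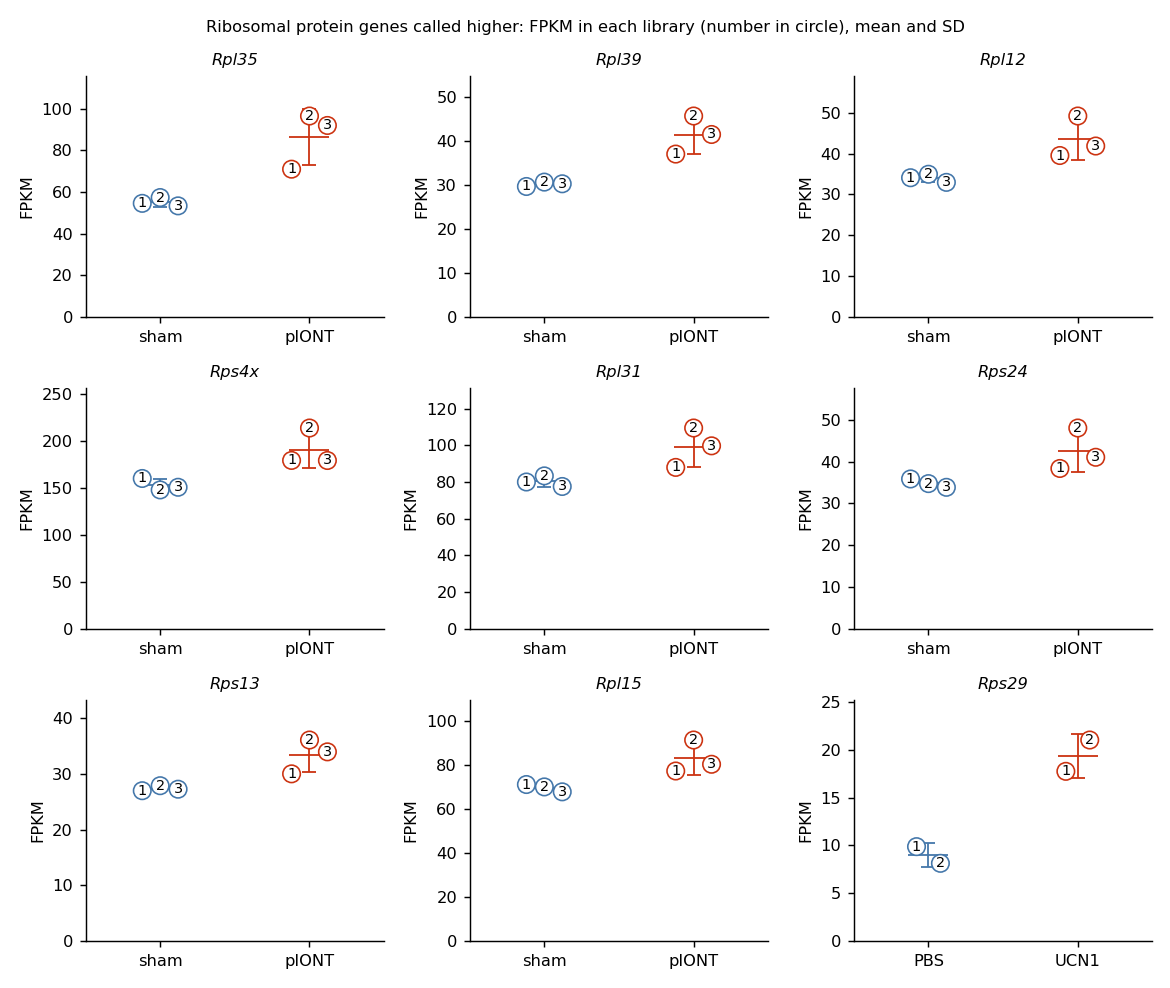
FPKM in each library for the 8 ribosomal protein genes called higher after pIONT and for Rps29, called higher after UCN1; the number in each circle is the replicate, bars give the mean and SD, and axes start at 0. The groups do not overlap in any of the 9 panels, and pIONT 1 is the lowest or level with the lowest of its group in each of the 8 surgery panels.

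Other genes of known roles were mostly not called. The stalk genes Rplp0, Rplp1 and Rplp2 had log2 fold changes of 0.17, 0.21 and 0.24 and were not called (limma adjusted p = 0.226, 0.2 and 0.121). Rps6 encodes the target of S6 kinase, and phosphorylation of that protein is often used as a sign of mTORC1 activity. The Rps6 mRNA, which does not measure this, was at 174, 163 and 171 FPKM in sham and at 169, 204 and 195 in pIONT (0.16). Rpl22, Rpl10, Rpl13a and Rpl7 lay between 0.16 and 0.20, and none was called. The 4 X-linked genes Rpl10, Rpl36a, Rpl39 and Rps4x lay between 0.20 and 0.44, with 2 called. Rpl41, the smallest ribosomal protein, was at 198, 212 and 194 against 215, 310 and 278 FPKM (0.40) without a call (limma adjusted p = 0.0633).

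Several members varied between libraries of a group by far more than the rest. Rps2, at the mRNA entry, was at 2.17, 39.998 and 1.99 FPKM in sham and at 33.7, 2.44 and 7.90 in pIONT (log2 fold change 0.55, SE 1.26). Rpl26, which binds near the tunnel exit, was at 44.3, 78.2 and 6.09 against 10.5, 70.2 and 97.0 (0.57, SE 1.10). In both genes high and low libraries stood in each group, and the fold change cannot be read as a difference between them. Rps27a, made as a fusion with ubiquitin, was at 24.1, 38.5 and 22.04 FPKM against 21.0, 73.8 and 23.8 (0.28, SE 0.47), with pIONT 2 alone far up. Rps28 was at 11.5, 12.04 and 7.07 against 11.3, 17.4 and 14.8 (0.50, limma adjusted p = 0.151). At the low end Rpl7a was at 86.5, 64.1 and 40.2 against 49.1, 56.0 and 37.2 (-0.37), and Rpl21 changed by -0.12. Rpl3, Rpl37, Rpl28 and Rpl17 completed the low end with 0.02 to 0.04. Of 75 genes, 8 had a within-group SD above 0.3 on the log2 scale, and the median SD was 0.14 against 0.09 for all tested genes. The joint shift of the members between libraries enters this SD: their library medians had a within-group SD of 0.125. In the injection experiment the median SD was 0.10 for the members and 0.13 for all tested genes.

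The second comparison asked which of the transcripts differed 6 hours after UCN1. The 76 genes held 1.29% and 1.19% of all FPKM after PBS and 1.35% and 1.42% after UCN1, and the groups did not overlap. Set against the PBS mean, the median of the 75 genes was 0.17 and 0.21 on the log2 scale in UCN1 1 and 2, and 0.07 and -0.07 in PBS 1 and 2. PBS 2 was the lowest of the 4 libraries for 57 genes and UCN1 2 the highest for 49. The median log2 fold change was 0.19, a 14.5% higher level, against -0.01 for all tested genes, and 66 of 75 (88%) lay above 0 against 48.5% of all genes.

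At a limma adjusted p under 0.05 a single member, Rps29, was called higher (1.33%, against 0.304% of all genes) and 0 lower (against 0.297%, and 0.601% in either direction). At an unadjusted p under 0.05 there were 30 of 75, 29 of them higher (40%, against 13.1% of all genes in either direction). In 55 genes (73.3%) both UCN1 libraries lay above both PBS libraries, against 21.8% of all genes, and in 2 genes both lay below, against 23.7%. Without PBS 1 the median was 0.27, and it was 0.14 without PBS 2. Pituitary markers moved with this comparison: 3 of 5 tested were called lower, and their summed level was 124 and 124 FPKM after PBS and 9.14 and 9.61 after UCN1, with Cga listed at 0 in UCN1 2. Of 8 fibroblast markers 2 were called lower, Mfap4 (44.9 and 40.9 against 1.28 and 1.01 FPKM) and Fmod (33.2 and 13.2 against 1.09 and 0.663), and the list summed to 1162 and 881 after PBS and to 892 and 872 after UCN1. The part of these cell types in the result was not tested.

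Rps29, a small zinc-binding protein of the head of the small subunit, was at 9.87 and 8.12 FPKM after PBS and at 17.8 and 21.0 after UCN1 (log2 fold change 1.07, SE 0.15, limma adjusted p = 0.0276). Both UCN1 libraries lay above both PBS libraries. The values rest on 66 and 59 reads against 129 and 147, and leaving out any 1 of the 4 libraries ended the call (limma adjusted p up to 0.461). Its place is chromosome 12 at 69157722 to 69159186 in GRCm38, and 64.2% of its words are its own. In the surgery experiment Rps29 was at 97.7, 105 and 92.5 FPKM in sham and at 102, 131 and 117 in pIONT, with overlapping groups (0.24, limma adjusted p = 0.119).

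The next highest log2 fold changes after UCN1 did not pass the test. Rpl29 was at 20.6 and 11.4 FPKM after PBS and at 24.9 and 34.1 after UCN1 (log2 fold change 0.91, limma adjusted p = 0.206). Rpl23a was at 5.10 and 4.69 against 6.504 and 8.37 (0.55), Rps27 at 27.1 and 27.8 against 39.8 and 36.3 (0.46), Rpsa at 297 and 157 against 290 and 305 (0.46) and Rps14 at 130 and 103 against 152 and 161 (0.43). The UCN1 libraries lay above the PBS libraries in 4 of these 5 genes and overlapped with them in Rpsa. Rplp0, Rplp1 and Rplp2 changed by 0.28, 0.34 and 0.18 and the X-linked Rpl10, Rpl36a, Rpl39 and Rps4x by 0.25 to 0.35, with no overlap and no call in any of the 7. Rps6 (0.12) and Rpl7 (0.17) were among the smaller changes.

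At the low end stood Rpl26, Rpl30 and Rpl13a. Rpl30 was at 6.29 and 3.91 FPKM after PBS and at 1.55 and 1.81 after UCN1 without passing the test (log2 fold change -1.33, SE 0.25, limma adjusted p = 0.0835). Rpl26 was at 4.26 and 86.4 FPKM after PBS and at 5.05 and 7.34 after UCN1 (-1.62, SE 1.06), and its log2 fold change was 0.47 without PBS 2. Rpl13a, a protein also released from the ribosome to silence mRNAs, was at 2.97 and 3.05 against 2.73 and 1.63 (-0.42), Rpl22 changed by -0.19, Rps28 by -0.09 and Rps10 by -0.04, none of them called. Rpl22 is the gene whose partner Rpl22l1 can stand in for it in the ribosome, and Rpl22l1 was at 0.982 and 1.08 against 0.813 and 0.467 FPKM (-0.44, not called).

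Several of the uneven members have near copies elsewhere in the genome. Of the 50-base words in each member's mRNA, a median of 39.4% occurred in no other annotated gene, and 65 of the 76 members shared at least 20% with a single other gene. The surgery table holds 39 annotated pseudogenes and the table of the injection experiment 13517, so a copy can have a row of its own in the latter. Each of the following stretches of 60 coding bases compares a member with a processed pseudogene that has its own values in the injection table, with capitals where the letters differ.
Rpl26, coding bases 147 to 206: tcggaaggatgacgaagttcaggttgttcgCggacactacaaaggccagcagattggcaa
Gm15772, its copy: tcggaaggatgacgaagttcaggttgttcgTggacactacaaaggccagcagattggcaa
Rpl30, coding bases 66 to 125: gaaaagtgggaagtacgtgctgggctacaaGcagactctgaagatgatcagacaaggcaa
Gm12191, its copy: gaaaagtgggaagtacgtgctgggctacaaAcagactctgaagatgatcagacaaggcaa
Rpsa, coding bases 184 to 243: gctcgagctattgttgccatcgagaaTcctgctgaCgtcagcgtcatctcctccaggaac
Rpsa-ps10, its copy: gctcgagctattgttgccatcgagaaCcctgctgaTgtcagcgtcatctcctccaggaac
Over the coding part 436 of 438 bases matched for Rpl26, 347 of 348 for Rpl30 and 879 of 885 aligned columns for Rpsa. In GRCm38 the copies lie on chromosome 5 at 3236431 to 3236868, on chromosome 11 at 49678710 to 49679057 and on chromosome 3 at 150072658 to 150073542.

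In these pairs, named after their values were seen, member and copy were high in different libraries of the injection table. Other pairs moved together. Rpl29 and its copy Gm8210, Rpl3 and Rpl3-ps1, and Rps2 and Rps2-ps13 were each lowest in PBS 2, member and copy alike. Gm15772 was at 122 and 62.3 FPKM after PBS and at 147 and 143 after UCN1, low in PBS 2, where Rpl26 was high. Gm12191 was at 22.5 and 23.4 against 44.2 and 40.5, high where Rpl30 was low. Rpsa was at 297 and 157 against 290 and 305 FPKM, and its copy was at 0.792 and 53.1 against 0.861 and 1.30, high in PBS 2, where Rpsa was low. Reads of member and near copies added together were 55.8 and 76.5 per 1e6 reads after PBS and 67.3 and 67.1 after UCN1 for Rpl26, a much narrower range than the 2.42 to 49.2 of Rpl26 by itself. For Rpl30 the sums were 13.5 and 12.1 against 17.8 and 16.2, higher after UCN1 where Rpl30 itself was lower. For Rpsa they were 307 and 210 against 299 and 315. The sums were not tested.

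**Figure D4:**
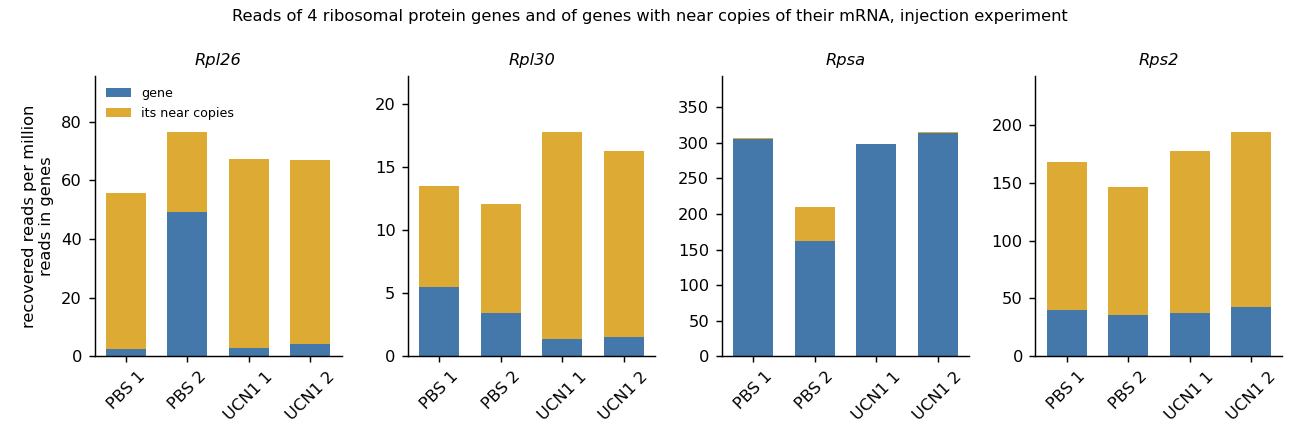
Recovered reads per 1e6 reads in genes for 4 ribosomal protein genes (blue) and for the genes that share at least 20% of their 50-base words (yellow, stacked), in each library of the injection experiment. Rpl26 takes 64.3% of the joint reads in PBS 2 and 4.27% to 6.23% in the other libraries, while Rps2 takes 21.2% to 24.5% in each of the 4.

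In the surgery table Rps27 too was high where its copy was low. It shares 98.6% of its words with Rps27rt, and stood at 29.7, 35.5 and 29.7 FPKM in sham and at 26.0, 47.8 and 40.2 in pIONT (log2 fold change 0.22, not called). Rps27rt was at 37.7, 24.8 and 30.2 against 36.3, 12.7 and 23.1 (-0.46, not called), lowest in pIONT 2, where Rps27 was highest. The 11 members that share less than 20% of their words with any single gene had log2 fold changes above 0 in 11 of 11 after pIONT (median 0.21, 2 called: Rpl39 and Rps24). After UCN1 they were above 0 in 9 of 11 (median 0.23, 0 called by limma). Among the 75 members the share of own words and the within-group SD had a Spearman rho of -0.13 after surgery and -0.14 after injection, over genes measured in the same libraries. With the mean level the share of own words had a rho of 0.21 and 0.11. The mean level and the within-group SD were more closely linked, with a rho of -0.41 after surgery and -0.35 after injection.

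The 2 comparisons share no library. Of the 75 members 65 had a log2 fold change above 0 in both, and 0 were called in both. Since 73 lay above 0 after pIONT and 66 after UCN1, most had to lie above 0 in both. The 65 are therefore no sign that the same genes responded. Rpl39 changed by 0.44 and 0.27, Rps4x by 0.31 and 0.35, Rpl31 by 0.30 and 0.29 and Rps24 by 0.28 and 0.28. Rps29 (0.24 and 1.07), Rpl35 (0.63 and 0.08) and Rpl12 (0.35 and -0.03) were the called genes whose values lay furthest apart. The injection value of Rpl35 rests on 42.9 to 62.0 reads per library (SE 0.22). Whether the 2 treatments differ in their effect was not tested, since the tables were made separately.

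Other parts of the translation machinery were read from lists written from general knowledge. After pIONT 5 of 22 genes of elongation factors and further TOP mRNAs were called higher and 0 lower (median log2 fold change 0.08). Eef1b2, which reloads the elongation factor eEF1A, was at 56.3, 57.5 and 56.2 FPKM in sham and at 84.0, 99.9 and 84.3 in pIONT (0.65, limma adjusted p = 0.0018). Eef1a1, that factor itself, was at 827, 773 and 783 against 952, 1111 and 975 (0.35, limma adjusted p = 0.0163), and the poly(A)-binding protein gene Pabpc1 rose by 0.26. For these 3 genes no pIONT library, pIONT 1 included, overlapped with sham.

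Of 25 initiation factors 6 rose and 0 fell (median 0.06), among them Eif3b (0.29), Eif5a (0.26) and Eif2s2 (0.22). Of 46 ribosome biogenesis factors 6 rose and 0 fell (median 0.02). They were led by Myc, a transcription factor that drives ribosome production, at 3.04, 3.25 and 3.34 FPKM in sham and 4.39, 5.04 and 4.46 in pIONT (0.47, limma adjusted p = 0.00537), and by Rrp12 (0.39). Of 23 genes of the mTORC1 pathway 3 rose and 3 fell. Those that rose were Rps6ka1 (0.65), Rragd (0.18) and Eif4ebp1 (0.75), the last an inhibitor of cap-dependent initiation. Those that fell were Rps6ka3 (-0.27) and Tsc1 (-0.25) and Tsc2 (-0.24), the Tsc genes being ones that hold mTORC1 in check. Rps6ka1 and Rps6ka3 encode RSK kinases and not the S6 kinases that mTORC1 acts on, whose genes were not called. Next to the 10.5% and 12.3% of all genes called higher and lower, the shares of the elongation and initiation lists called higher were 22.7% and 24%. For both the biogenesis and the mTORC1 list the share called higher was 13.0%, near that of all genes. The mTORC1 list had as many genes called lower.

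Genes of the mitochondrial ribosome and of the respiratory chain had medians below 0 after pIONT. Of 77 mitochondrial ribosomal protein genes 2 rose (2.60%) and 2 fell (median -0.06), with Mrpl28 at 0.31 and Mrpl16 at -0.30. Of 76 nuclear genes of respiratory chain subunits 0 rose and 21 fell (median -0.13), led by Sdha at 86.9, 88.4 and 85.2 FPKM in sham and 71.8, 66.9 and 72.0 in pIONT (-0.30, limma adjusted p = 0.0049). Of 31 proteasome subunits, another large complex, 5 rose (16.1%) and 0 fell (median 0.01). After UCN1 0 genes of any of these lists were called by limma, and the unadjusted p was under 0.05 for 5 of the 22 elongation and TOP genes, 3 initiation factors, 2 biogenesis factors, 3 mTORC1 genes, 5 mitochondrial ribosomal and 20 respiratory chain genes and 2 proteasome subunits. The medians were 0.11 for elongation and TOP genes, 0.04 for mitochondrial ribosomal and 0.14 for respiratory chain genes.

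Genes of the cytosolic ribosome that the name rule leaves out include Fau and Rack1, and several members have paralogues with other names. Of 12 such genes 8 were tested in each experiment, and 0 were called by limma in either, with 2 at an unadjusted p under 0.05 in each. Rack1, a scaffold on the small subunit, was at 39.5, 36.9 and 37.3 FPKM in sham and at 41.0, 46.4 and 42.5 in pIONT (log2 fold change 0.19, limma adjusted p = 0.0544), with no overlap. It was at 69.6 and 63.4 after PBS and at 77.0 and 79.6 after UCN1 (0.23). Fau, a fusion with a ubiquitin-like protein, changed by 0.20 and 0.10. Among ribosomal protein pseudogenes 30 were tested in the injection table, and 1 was called, Rpl26-ps6, at 1.62 and 2.43 FPKM after PBS and 7.70 and 6.42 after UCN1 (1.60, limma adjusted p = 0.0276).

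**Figure D5:**
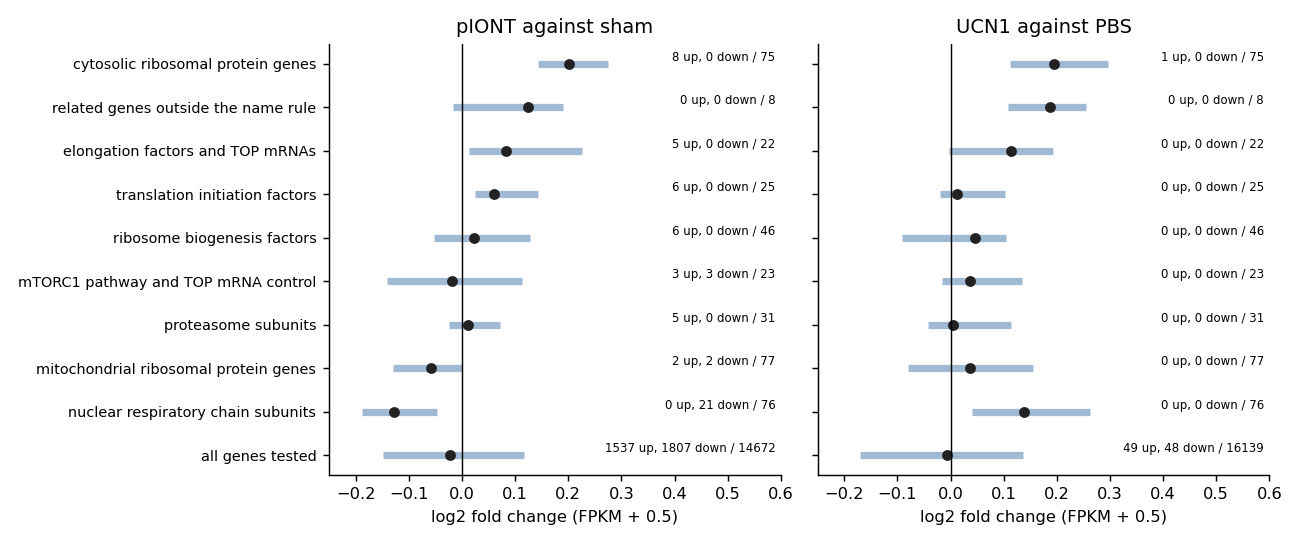
Median log2 fold change (points) and the range from the first to the third quartile (bars) for the ribosomal protein genes, for related gene lists and for all tested genes, with the number called higher (up) and lower (down) of those tested. The cytosolic ribosomal protein genes have the highest median of the lists drawn in both panels, 0.20 and 0.19. The related genes outside the name rule lie at 0.12 after pIONT. After UCN1 they lie almost level with the ribosomal protein genes, at 0.187 against 0.195. The respiratory chain lies at -0.13 after pIONT and at 0.14 after UCN1.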

How the data were processed

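The authors deposited 1 table of FPKM values per experiment. STAR, HTSeq, DESeq2 and GRCm39 appear, without version or role, in the submitters' processing notes. Of the injection table's gene identifiers, 99.42% have the coordinates of GENCODE vM21 (GRCm38), and 1.99% of the surgery table's, so coordinates of the latter are given as deposited. No source used here states whether counting used strand. Symbols come from GENCODE vM21.

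Genes with a mean of at least 0.5 FPKM (14672 and 16139) went into limma 3.58.1 (R 4.3.3) as log2(FPKM + 0.5), without covariates, with its trend option and Benjamini-Hochberg adjustment over all of them. Genes under an adjusted p of 0.05 are said to be called. Fold changes on this scale understate the change of low genes. Reads were recovered from steps in low FPKM values, of which 91.9% to 92.3% were whole within 0.1 reads in the surgery and 98.8% to 99.0% in the injection experiment. Words of 50 bases were compared between GENCODE transcripts, 1 principal transcript per member. The fit was tested on simulated reads. Alternatives changed the pseudocount, the filter, the scaling, the trend, library weights and a replicate block, or left out each library in turn.

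The members and lists were chosen with earlier results of these data known. Named genes are the 5 highest and 5 lowest by level and the 6 largest and 6 smallest fold changes of each comparison, called members, 13 members of known roles with tested paralogues, and, of each other list, up to 4 called or the 2 highest. Outside this rule, Rps27a, Rps29 in the surgery experiment, Rragd, Rps6ka3 and the copies were named after their values were seen. Single values of some genes are not reported here.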

Additional observations from a re-analysis of the deposited data

How the results depend on the processing

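For pIONT the median log2 fold change of the ribosomal protein genes stayed above 0 in each alternative, from 0.13 to 0.30, with 63 to 74 genes above 0. The number called higher was 3 with no filter, 5 without a mean-variance trend and 2 among the members without near copies, a choice made after seeing the data. Leaving out 1 library gave 2 to 46. The share of all genes called in each alternative is not reported here, so these counts have no background beside them. For UCN1 the median ranged from 0.14 to 0.27 when 1 library was left out, and was 0.23 among members without near copies. The number called higher was 0 with no filter, without a trend, among members without near copies and without each library in turn (0 to 0), and 0 to 1 were called lower without a library. A filter at a mean of 2 FPKM gave 1 called lower. With 1 library left in a group of 2, that library is assumed to vary like the other group.

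In the surgery experiment same-numbered libraries did not deviate together, with correlations of -0.06, -0.20 and 0.07, and not every library correlated best with its own number. After injection, 2 libraries a group yield a single value, 0.04 for same and -0.04 for other numbers, which cannot decide on pairing. The labels state no pairs, and the numbers were not taken as pairs in either experiment. With the replicate number as a block, 5 genes were called higher after pIONT, and 1 higher and 1 lower after UCN1.

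Without mitochondrial and haemoglobin genes the share of FPKM was 2.59%, 2.62% and 2.49% in sham 1 to 3 and 2.54%, 3.13% and 2.90% in pIONT 1 to 3. It was 1.33% and 1.24% after PBS and 1.40% and 1.45% after UCN1.

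Uncalled genes changed sign as follows. After pIONT array weights gave -0.071 for Rpl17, -0.0075 for Rpl3 and -0.032 for Rpl37. TPM scaling gave -0.0041 for Rpl28, -0.020 for Rpl3 and -0.0072 for Rpl37. Equal sums over all other genes gave -0.015 for Rpl3 and -0.0031 for Rpl37. Leaving out 1 library, the log2 fold change ranged from -0.20 to 0.29 for Rpl17, -0.23 to 0.064 for Rpl21, -0.49 to 1.54 for Rpl26, -0.047 to 0.20 for Rpl29, -0.018 to 0.080 for Rpl3, -0.041 to 0.21 for Rpl34 and -0.051 to 0.18 for Rpl37. It ranged from -0.0050 to 0.078 for Rpl4, -0.016 to 0.25 for Rps10, -0.019 to 0.26 for Rps18, -0.38 to 1.87 for Rps2 and -0.022 to 0.25 for Rpsa. After UCN1 it ranged from -3.72 to 0.47 for Rpl26, -0.22 to 0.38 for Rpl35, -0.090 to 0.028 for Rpl4, -0.042 to 0.11 for Rpl7a, -0.61 to 0.53 for Rps10 and -0.36 to 0.18 for Rps28. The cause was not tested. Rpl24 was not tested, on 0 to 19 reads per library.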
